A study of Mus musculus with 7 samples.

Results

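A set of 7 genes of the insulin-like growth factor system were followed through the mouse fetal and perinatal ovary, out of 31053 genes in the deposited single-cell count matrices. They were chosen by gene symbol: the ligand Igf1, its receptor Igf1r, and the binding proteins Igfbp2, Igfbp3, Igfbp4, Igfbp5 and Igfbp7. The choice was made with earlier results of these data known. All 7 had UMIs (unique molecular identifiers, 1 per captured transcript) in every library.

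The samples were 7 libraries of untreated wild-type C57BL/6J mice, 1 per age. The fetal ages were E11.5 and E12.5, then E14.5, the later E16.5, and E18.5, and the newborn ages were P1 and P5, where E is embryonic day and P is day after birth. Each library held dissociated cells from pooled gonads, and the E11.5 library is labelled gonad where the others are labelled ovary. No allele, transgene or drug separated the groups. Age was the labelled factor, the share of cells with Y-linked transcripts also differed between the libraries (given below), and with 1 library per age no single age could be tested. Of 52542 barcodes, 50823 with at least 200 genes were kept, with a median of 6349 to 11060 UMIs per cell across the libraries.

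IGF1 is a secreted peptide that activates the receptor tyrosine kinase encoded by Igf1r and, through it, growth and survival signalling. The binding proteins hold IGFs outside the cell. Depending on the protein and on proteases that cut it, they restrain the ligand or release it near its receptor, and in the adult ovary they are known from granulosa, theca and stromal cells. Igfbp7 encodes a low-affinity member that is best known from blood vessels.

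Cells were placed in 6 classes by marker UMIs per cell. Epithelium had at least 2 UMIs of Upk3b, stroma at least 5 of Col1a1 plus Col1a2, endothelium at least 2 of Cdh5, and germ cells at least 3 of Dazl plus Ddx4. Pregranulosa cells, the somatic cells that enclose the oocytes, had Wnt6 and Kitl with at least 3 UMIs together, and were divided into Gng13-low (1 UMI or fewer) and Gng13-high (3 or more). At E11.5 this gate took 155 Gng13-low cells. The paper regards Wnt6-positive cells of that age as likely bipotential precursors, not yet pregranulosa cells. They entered the Gng13-low contrasts and slopes under the class name. The classes held 1051 epithelial, 5937 Gng13-low, 4841 Gng13-high, 11546 stromal, 445 endothelial and 4427 germ cells, together 55.6% of those kept. The 2372 cells that met several gates and the 19481 that met none were in no class. Classes with fewer than 20 cells in a library were left out, which removed Gng13-high pregranulosa (13 cells) and germ cells (9 cells) at E11.5.

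Of 5 check markers per cell type that the gates did not use, all 5 were highest in their own class for epithelium, stroma, endothelium and germ cells, and 4 of 5 for pregranulosa (Lgr5 was highest in epithelium). Stroma also carried markers of pericytes and other mural cells, whose summed level was 294 to 1227 per 1000000 UMIs there and at most 123 in any other class. One library stood apart. E16.5 shared 0 to 3 cell barcodes with each other library, whereas the other pairs shared 20 to 131. Class contrasts and slopes whose call changed without E16.5 are therefore given with and without it. Differences of slope between classes were fitted only with E16.5 included. The methods name 1 library chemistry for all ages, and what set E16.5 apart was not tested. Cells with a UMI of a Y-linked gene made up 32.4% to 41.9% of the 4 classes at E11.5 that had at least 20 cells. At E12.5, labelled ovary, they were 14.1% of Gng13-low pregranulosa and 14.3% of endothelium (4 of 28 cells) but 1.41% of Gng13-high pregranulosa, and from E14.5 on at most 1.72% of any class (1 of 58 germ cells at P5). Whether male gonads entered the E12.5 library was not tested, and at E11.5 and E12.5 age cannot be told apart from this mix of cells.

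A level is given as UMIs of the gene per 1000000 UMIs of the class (CPM), so it is relative to all transcripts of those cells. As background, cells of no class with at least 2 UMIs of the erythroid gene Alas2 held 1.71 to 9.87 CPM of Igf1, 2.73 to 24.504 of Igf1r, 1.32 to 18.1 of Igfbp2, 0 to 5.13 of Igfbp3, 4.28 to 15.3 of Igfbp4, 5.55 to 60.2 of Igfbp5 and 0.179 to 11.8 of Igfbp7. Intervals in brackets are 95% exact Poisson limits and cover counting error only.

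The sequences upstream of 4 members are shown because Igfbp2 and Igfbp5 are neighbours that went in opposite directions in stroma. Igfbp4 and Igfbp7 were added as the members called as rising with age in stroma. Igfbp2 and Igfbp5 lie tail to tail on chromosome 1, at 72824503 to 72852474 on the plus strand and 72857932 to 72874884 on the minus strand (GRCm38, GENCODE vM21), with 5457 bases between them. Igfbp4 lies on chromosome 11 at 99041244 to 99054392 (plus) and Igfbp7 on chromosome 5 at 77349240 to 77408041 (minus). Each line gives the 250 bases before a RefSeq start site (GRCm38.p6), for Igfbp2 the more upstream of 2, read 5′ to 3′ on the gene's strand, with matches on either strand to TATAAA (the TATA box), to GGGCGG (the GC box) or to CCAAT (the CCAAT box) in capitals.
Igfbp2 (chr1:72824230-72824479, plus): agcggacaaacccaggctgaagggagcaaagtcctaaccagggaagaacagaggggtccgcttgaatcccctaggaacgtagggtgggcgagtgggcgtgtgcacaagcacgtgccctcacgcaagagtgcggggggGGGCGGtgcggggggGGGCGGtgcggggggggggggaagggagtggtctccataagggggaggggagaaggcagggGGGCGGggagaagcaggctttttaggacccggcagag
Igfbp5 (chr1:72874866-72875115, minus): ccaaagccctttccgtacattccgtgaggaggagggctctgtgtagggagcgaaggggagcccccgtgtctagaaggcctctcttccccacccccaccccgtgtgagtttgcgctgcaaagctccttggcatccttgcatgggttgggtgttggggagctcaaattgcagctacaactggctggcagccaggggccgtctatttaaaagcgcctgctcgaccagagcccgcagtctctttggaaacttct
Igfbp4 (chr11:99040994-99041243, plus): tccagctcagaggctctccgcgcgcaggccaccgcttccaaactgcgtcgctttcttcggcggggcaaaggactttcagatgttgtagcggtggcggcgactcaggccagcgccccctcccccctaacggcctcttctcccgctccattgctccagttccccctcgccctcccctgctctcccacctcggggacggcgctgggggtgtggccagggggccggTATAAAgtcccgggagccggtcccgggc
Igfbp7 (chr5:77408046-77408295, minus): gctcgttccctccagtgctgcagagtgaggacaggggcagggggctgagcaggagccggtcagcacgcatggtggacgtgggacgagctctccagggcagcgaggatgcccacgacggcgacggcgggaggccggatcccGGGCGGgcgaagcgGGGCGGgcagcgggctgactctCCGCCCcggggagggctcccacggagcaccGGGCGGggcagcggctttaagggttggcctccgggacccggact
The Igfbp7 window held 4 GC boxes and the Igfbp2 window 3, Igfbp4 held 1 TATAAA, 28 bases before the start site, and Igfbp5 held none of the 3 motifs. The window before the other Igfbp2 start site (chr1:72825137-72825386) also held none. Of 32851 RefSeq windows of the same length, 12.4% held TATAAA, 32.7% a GC box and 33.9% CCAAT. A match is a run of letters and not a measured binding site.

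Taken by class, the 7 genes fell into several patterns. Each class was set against the mean of the other 5 with edgeR's quasi-likelihood test on UMI sums per class and library, with library as a block and Benjamini-Hochberg adjustment over 11771 genes and 40 sums. In stroma 6 of 7 members were higher (background 23.6% of genes) and 1 was lower (22%). In endothelium 5 were higher (22.7%) and 2 lower (30.8%), and in germ cells all 7 were lower (34.6%) and none higher (40.5%). In epithelium 4 were called (17.9% in either direction), 3 of them higher. In Gng13-high pregranulosa 2 were higher (21.6%) and 4 lower (18.2%), and in Gng13-low pregranulosa 1 was higher (21.9%) and 2 lower (16.9%). Without E16.5, 31 of these 34 calls remained. Germ cells, being lower than the mean of the other 5 classes for all 7 members, raise every other class in such a contrast. They were not below each single class, since Igfbp3 was lower in Gng13-low pregranulosa than in germ cells (log2 fold -1.27, edgeR adjusted p = 0.0289). With germ cells left out, 24 of the 27 calls in the other classes remained and 3 were gained. The gained calls were all lower. They were Igf1 (given below) and Igfbp4 (log2 fold -1.28, edgeR adjusted p = 0.00033) in Gng13-low pregranulosa, and Igfbp4 in Gng13-high pregranulosa (-1.13, adjusted p = 0.00187).

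**Figure D1:**
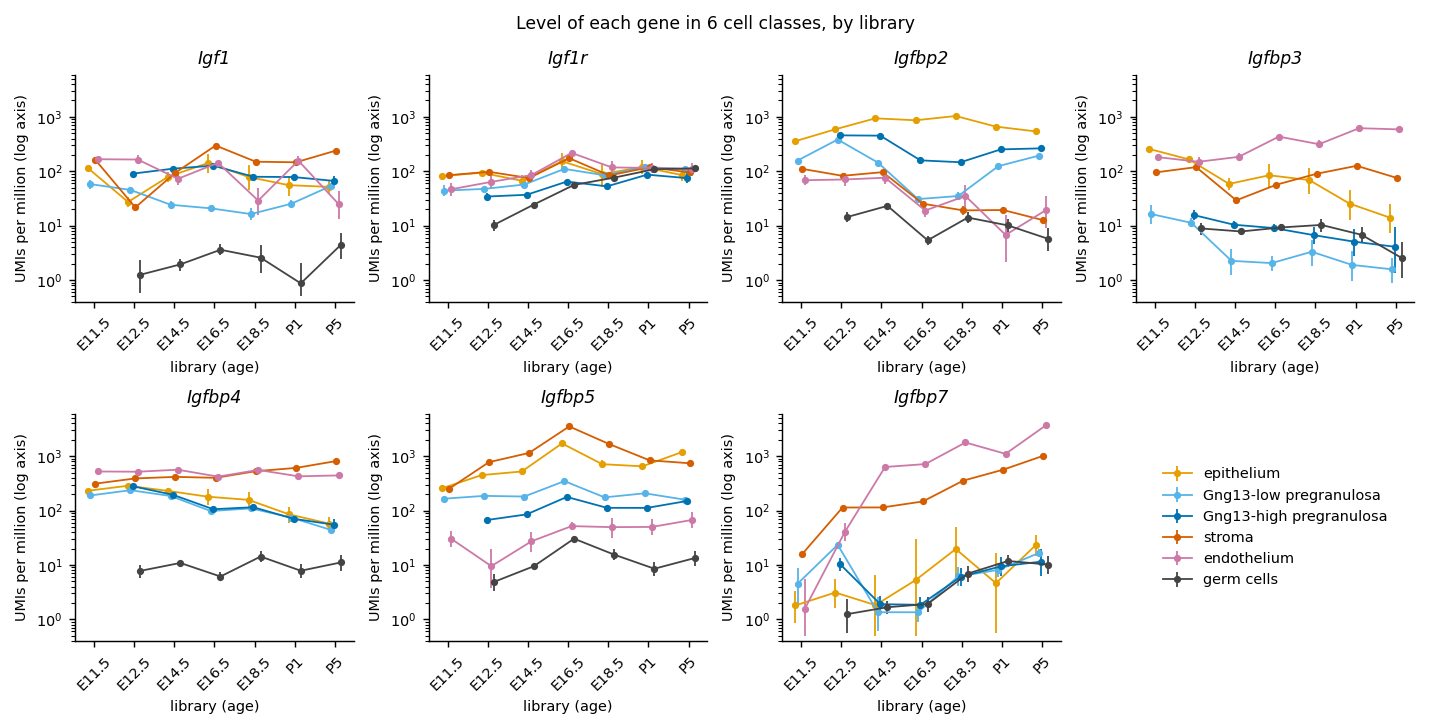
Level of each of the 7 genes in 6 cell classes, in CPM on a log axis, against library in order of age, with 95% Poisson intervals and values under 0.5 drawn at 0.5. Igfbp2 was highest in epithelium in all 7 libraries, and stromal Igfbp5 peaked at 3522 CPM at E16.5.

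Igf1, the ligand, had its highest median levels in stroma and endothelium, followed by Gng13-high pregranulosa cells and epithelium, and was near background in germ cells. In order of age from E11.5 to P5, stromal Igf1 was 164, 21.7 [18.8 to 24.9], 94.3, 298, 150, 146 and 241 CPM. The E12.5 stroma was the low library and E16.5 the high one, and the values did not run in 1 direction with age. Endothelial Igf1 ranged from 25.02 CPM at P5, from 13 UMIs in 36 cells, to 167 at E11.5, with a median of 143. Epithelial Igf1 ranged from 27.3 CPM at E12.5 to 143 at E16.5. In germ cells Igf1 was 0.871 to 4.46 CPM, at or below the highest erythroid level (9.87 CPM).

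Against the other classes Igf1 was higher in stroma by a log2 fold of 2.10 (SE 0.28, adjusted p = 1.44e-07), in endothelium by 1.51 (SE 0.31, adjusted p = 0.0001) and in Gng13-high pregranulosa by 1.27 (SE 0.30, adjusted p = 0.00108). It was lower in germ cells (log2 fold -4.95, SE 0.49, adjusted p = 5.22e-11). In epithelium it did not pass (0.70, SE 0.33, adjusted p = 0.154) but was called higher under 3 of 19 alternatives. Its log2 fold in epithelium ran from -0.34 to 0.93 over those 19. Epithelium and Gng13-high pregranulosa were not shown to differ (Gng13-high higher by 0.48, SE 0.44, adjusted p = 0.512). Ordered by median level, the classes ran stroma, endothelium, Gng13-high pregranulosa, epithelium, Gng13-low pregranulosa and germ cells, and only the last pair of neighbours differed beyond their spread (edgeR adjusted p = 9.9e-08). With germ cells left out, the endothelial and Gng13-high calls were lost (log2 fold 0.57, adjusted p = 0.148, and 0.29, adjusted p = 0.516) and the stromal call remained (log2 fold 1.16, adjusted p = 0.00249). In that fit Gng13-low pregranulosa was called lower (log2 fold -1.69, edgeR adjusted p = 0.000441). With germ cells included it had not passed (-0.62, adjusted p = 0.1355). At 2000 UMIs per cell, 3.82% to 38.5% of stromal cells held an Igf1 UMI, 0% to 0.913% of germ cells and 0% to 2.01% of erythroid cells. Before thinning the shares were 14.3% to 77.2% of stromal cells, with median depths of 5479 to 11174 UMIs, and 2.08% to 20.7% of germ cells, with median depths of 12029 to 60272.

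Igf1r, the receptor for IGF1, was detected in all classes and differed least between them. Stromal Igf1r ranged from 75.1 CPM at E14.5 to 174 at E16.5, endothelial Igf1r from 46.7 at E11.5 to 218 at E16.5, and epithelial Igf1r from 66.8 at E14.5 to 153 at E16.5. E16.5 was the highest library in each of these 3 classes. The log2 fold against the other classes was 0.53 in stroma (SE 0.16, adjusted p = 0.00738), 0.52 in endothelium (SE 0.17, adjusted p = 0.0108), -0.73 in Gng13-high pregranulosa (SE 0.19, adjusted p = 0.00243) and -0.60 in germ cells (SE 0.19, adjusted p = 0.00522). Without E16.5 the endothelial and germ cell calls were lost (adjusted p = 0.109 and 0.0508), and without E12.5 the germ cell call was lost (adjusted p = 0.0522). No pair of neighbours in the order of medians (endothelium, stroma, epithelium, Gng13-low pregranulosa, germ cells, Gng13-high pregranulosa) differed beyond the spread, the smallest adjusted p of those tested being 0.114.

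In germ cells, from E12.5 to P5, Igf1r was 10.3 [8.08 to 12.9], 24.502, 56.2, 76.5, 109 and 113 [102 to 125] CPM. Each library was above the one before it in age, and the P1 and P5 intervals overlapped. Germ cells held 23.5 Igf1r UMIs per 100 cells at E12.5 and 612 at P5, when the median germ cell had 60272 UMIs. At 2000 UMIs per cell, the share with an Igf1r UMI was 0.977% at E12.5 and 22.4% at P5, against 0.794% to 3.89% of erythroid cells. The slope over age was 0.25 log2 units per day (SE 0.06) and did not pass the test (adjusted p = 0.0885 over 7764 genes). It passed without E16.5 (0.26 per day, adjusted p = 0.044). Both pregranulosa classes also had rising, uncalled slopes of Igf1r (given below).

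Igfbp2 was higher in epithelium than in any other class in all 7 libraries. From E11.5 to P5, epithelial Igfbp2 was 357, 591, 941, 866, 1037, 662 and 539.6 CPM, with 22 cells behind the E16.5 value and 20 behind the E18.5 value. The lowest of these values lay above the highest of stroma (111 CPM), endothelium (76.1) and germ cells (23.1), but below the highest of Gng13-high (457) and Gng13-low pregranulosa (383), both at E12.5. The log2 fold against the other classes was 3.71 in epithelium (SE 0.26, adjusted p = 6.37e-13) and 1.93 in Gng13-high pregranulosa (SE 0.28, adjusted p = 1.42e-06). It was -1.32 in stroma (adjusted p = 0.00156), -1.54 in endothelium (adjusted p = 0.000684) and -3.36 in germ cells (adjusted p = 9.12e-09). Of neighbours in the order, epithelium and Gng13-high pregranulosa differed (adjusted p = 0.0103), as did Gng13-low pregranulosa and endothelium (0.000831) and stroma and germ cells (0.00076).

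Igfbp3, the main carrier of IGFs in serum, was highest in endothelium from E14.5 on and in epithelium at E11.5 and E12.5. In order of age, endothelial Igfbp3 was 181, 149.5, 184, 434, 314, 619.6 and 589 CPM. Epithelial Igfbp3 in the same libraries was 259, 166, 58.6, 84.5, 68.8, 25.5 and 14.1 CPM. The endothelium was high in the oldest libraries and the epithelium in the youngest. Pregranulosa and germ cells held at most 16.4 CPM. The log2 fold was 4.48 in endothelium (SE 0.31, adjusted p = 2.37e-14), 1.71 in stroma (SE 0.31, adjusted p = 3.38e-05) and 1.59 in epithelium (SE 0.37, adjusted p = 0.00219). Stroma and epithelium, neighbours in the order, did not differ beyond the spread (adjusted p = 0.944).

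Igfbp4, a binding protein that the protease PAPP-A cuts, was a transcript of endothelium and stroma. Endothelial Igfbp4 stayed between 421 and 564 CPM in all 7 libraries. Stromal Igfbp4, from E11.5 to P5, was 312, 389.8, 416, 399.9, 530.0, 608 and 813 CPM. The log2 fold was 2.41 in stroma (SE 0.21, adjusted p = 8.3e-12) and 2.29 in endothelium (SE 0.20, adjusted p = 1.58e-11), and these 2 classes did not differ beyond the spread (adjusted p = 0.831). Igfbp4 in epithelium and in both pregranulosa classes was 43.8 to 286 CPM, and in germ cells 6.14 to 14.3 CPM, inside the range of the erythroid cells.

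Igfbp5, which also binds extracellular matrix, had its highest median levels in stroma and epithelium. Pregranulosa cells held it at 159 to 348 CPM (Gng13-low) and 66.9 to 178 CPM (Gng13-high). By age, stromal Igfbp5 was 249, 776, 1146, 3522 [3499 to 3544], 1662, 839 and 741 CPM. Epithelial Igfbp5 was 255 CPM at E11.5 and 1715 at E16.5, and ended at 1198 at P5. E16.5 was the highest library for Igfbp5 in stroma, epithelium, germ cells, the erythroid cells and both pregranulosa classes. The germ and erythroid values there were 30.4 and 60.2 CPM, and the part of background RNA in them was not tested. The part of the E16.5 library itself in the E16.5 peak cannot be told apart from age. The log2 fold was 3.58 in stroma (SE 0.17, adjusted p = 4.29e-18) and 2.74 in epithelium (SE 0.18, adjusted p = 4.95e-14). Endothelium was on the other side (9.51 to 67.3 CPM, log2 fold -2.12, SE 0.26, adjusted p = 2.32e-08). Gng13-low pregranulosa was called higher (log2 fold 0.61, SE 0.20, adjusted p = 0.0152), a call kept in 12 of 19 alternatives. It was lost without Pax8-positive cells (0.47, edgeR adjusted p = 0.062), without E11.5 (0.45, 0.0551), without E12.5 (0.46, 0.0955) and without E14.5 (0.59, 0.0504). It was also lost with the gate minimum doubled (0.43, 0.0941) and with cells of several gates counted in each (0.28, 0.411). Without germ cells its sign reversed (-0.27, adjusted p = 0.352). Listed markers of the rete and mesonephric tubules (Pax8, Pax2, Cdh16 and Emx2) summed to 92.3 to 295 CPM in Gng13-low cells, the highest median of the classes (150 CPM, against 122 in epithelium and 103 in Gng13-high cells). Their part in this call was not tested further. Gng13-high pregranulosa was called lower (-0.57, SE 0.23, adjusted p = 0.0477), kept in 10 of 19. This call was lost, among others, without E16.5 (-0.49, edgeR adjusted p = 0.118). Stroma and epithelium did not differ beyond the spread (adjusted p = 0.0546).

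Igfbp7 was a transcript of endothelium and stroma whose level differed between the youngest and oldest libraries more than that of any other member. In order of age, endothelial Igfbp7 was 1.56 (from 2 UMIs in 68 cells), 40.8, 633, 715, 1784, 1104 and 3669.6 CPM. Stromal Igfbp7 was 15.97, 114, 114, 147, 354, 565 and 1017 [1001 to 1033] CPM. Epithelial, pregranulosa and germ cells held at most 23.5 CPM. The log2 fold was 6.16 in endothelium (SE 0.42, adjusted p = 1.14e-14) and 4.05 in stroma (SE 0.39, adjusted p = 1.2e-10), and endothelium and stroma differed from each other (log2 fold 1.77, SE 0.56, adjusted p = 0.0113). At 2000 UMIs per cell, 0% of endothelial cells at E11.5 and 97.2% at P5 held an Igfbp7 UMI, against 0% to 2.08% of erythroid cells, and the unthinned shares were 2.94% and 97.2% at median depths of 15206 and 12337 UMIs.

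The 2 pregranulosa classes were compared directly, since the study follows pregranulosa cells of different origin. In the 6 libraries from E12.5 on, 3 of 7 members were higher in Gng13-high cells (background 9.96% of 9308 genes) and 2 were lower (9.73%). Igf1 in Gng13-high cells was 90.5, 112, 127, 79.3, 78.3 and 66.6 CPM from E12.5 to P5, against 45.4, 24.3, 20.8, 16.4, 25.3 and 54.1 in Gng13-low cells. The ratio was 6.10 [5.49 to 6.79] at E16.5 but 1.23 [0.961 to 1.56] at P5, an interval that held 1. Igfbp2 was higher in Gng13-high cells in each of the 6 libraries, 5.15-fold at E16.5 and 1.19-fold at E12.5. Igfbp3 was low in both, at 4.11 to 15.7 CPM in Gng13-high and 1.58 to 11.3 in Gng13-low cells, where the erythroid cells held 0 to 5.13 CPM.

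The log2 fold of Gng13-high over Gng13-low was 1.75 for Igf1 (SE 0.28, edgeR adjusted p = 0.00399), 1.34 for Igfbp2 (SE 0.28, adjusted p = 0.0118) and 1.48 for Igfbp3 (SE 0.27, adjusted p = 0.00677). Igf1r and Igfbp5 went the other way, by -0.55 (SE 0.06, adjusted p = 0.00095) and -0.82 (SE 0.14, adjusted p = 0.00513), with ratios of 0.585 to 0.725 for Igf1r and 0.359 to 0.948 for Igfbp5. The Igfbp5 ratio of 0.948 [0.809 to 1.11] was that of P5, and its interval held 1. Igfbp4 (0.18, SE 0.06, adjusted p = 0.0813) and Igfbp7 (-0.16, SE 0.25, adjusted p = 0.716) did not pass. When cells of several gates were counted in each class, the Igfbp5 and Igfbp3 differences were lost (0.16, adjusted p = 0.831, and 0.77, adjusted p = 0.0853) and Igfbp7 was called lower in Gng13-high cells (-1.15, adjusted p = 0.0174). Igfbp3 was under the expression filter, and so not tested, without E12.5 or without E14.5. In the fit over all 6 classes Igf1 alone kept its call (adjusted p = 0.0383). The genes Sox9, Amh, Dhh and Cldn11, listed as Sertoli markers, summed to 53.9 to 319 CPM in Gng13-low and 10.4 to 44.1 in Gng13-high cells. Amh is also a gene of growing follicles, so the sum does not by itself mark Sertoli cells. Its part in the differences was not tested. Without cells in which a Y-linked UMI was detected, the same 5 members were called.

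**Figure D2:**
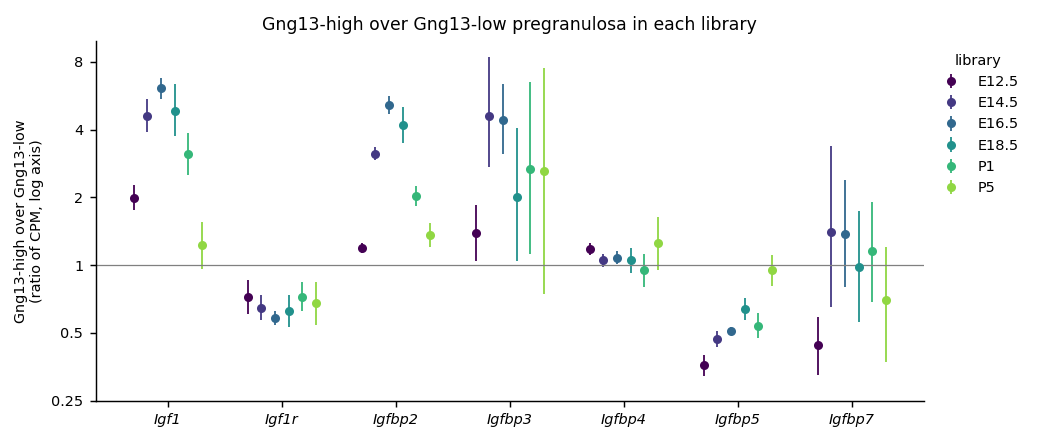
Ratio of the level in Gng13-high over Gng13-low pregranulosa cells for each gene and each of 6 libraries, on a log axis with 95% intervals for counting error. Igf1 and Igfbp2 lay above 1 and Igf1r and Igfbp5 below 1 in all 6 libraries, and the Igf1 ratio was 6.10 at E16.5 and 1.23 at P5. The P5 intervals of Igf1 and Igfbp5 held 1.

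Trends over age were tested within each class as a slope in days, with P1 placed 2 days and P5 placed 6 days after E18.5. Of the 34 slopes that could be tested, 9 passed: 2 of 7 rose in stroma (background 1.66%) and 1 fell (0.621%), and 2 of 7 rose in endothelium (2.56%) and none fell (1.42%). In epithelium 2 of 6 fell (2.45%) and none rose (4.68%). In Gng13-low pregranulosa 1 of 5 fell (0.753%; 1.12% rose), and in Gng13-high pregranulosa 1 of 5 fell (0.319%; 0.898% rose). None of 4 passed in germ cells, where 0.489% of genes rose and 0.167% fell. In germ cells Igf1r alone had an unadjusted p under 0.05 in edgeR (share of all genes not given), and in DESeq2 it passed the adjusted threshold (adjusted p = 0.00073). Igf1r also had an uncalled rise in Gng13-low pregranulosa (0.12 per day, SE 0.03, edgeR adjusted p = 0.084). There it passed in DESeq2 (adjusted p = 0.0102) and in edgeR without E16.5 (adjusted p = 0.0393). In Gng13-high pregranulosa its slope was 0.11 (SE 0.03, edgeR adjusted p = 0.229). Igfbp3 and Igfbp7 were under the filter of 10 CPM in both pregranulosa classes and in germ cells, as were Igfbp7 in epithelium and Igf1 in germ cells.

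Igfbp7 rose in stroma by 0.37 log2 units per day (SE 0.06, adjusted p = 0.0156) and in endothelium by 0.50 (SE 0.12, adjusted p = 0.0294). Igfbp3 rose in endothelium by 0.18 (SE 0.04, adjusted p = 0.0128) and fell in epithelium (-0.30 per day, SE 0.04, adjusted p = 0.00112). Igfbp4 rose in stroma by 0.11 (SE 0.02, adjusted p = 0.0473) and fell in epithelium (-0.17, adjusted p = 0.0116), Gng13-low (-0.18, adjusted p = 0.0199) and Gng13-high pregranulosa (-0.20, adjusted p = 0.029). Igfbp2 fell in stroma (-0.25 per day, SE 0.04, adjusted p = 0.0236), from 111 CPM at E11.5 to 12.6 at P5. In endothelium its slope was -0.20 (SE 0.06, edgeR adjusted p = 0.0738), uncalled in 13 of 18 alternatives. There it passed in DESeq2 (adjusted p = 0.0472) and in edgeR without E16.5 (-0.19, adjusted p = 0.0385). The stromal and endothelial slopes of Igfbp2 were not shown to differ (-0.05, SE 0.05, edgeR adjusted p = 0.619). No slope of Igf1 or Igfbp5 passed with all libraries. Without E16.5, Igfbp5 rose in epithelium (0.14, adjusted p = 0.0127, against 0.13, adjusted p = 0.176, with it) and in endothelium (0.15, adjusted p = 0.0346, against 0.15, adjusted p = 0.0672), and in endothelium it also passed in DESeq2 (adjusted p = 0.043). Endothelial Igfbp5, at 9.51 to 67.3 CPM, overlapped the background of the erythroid cells (5.55 to 60.2 CPM).

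Differences of slope between classes were tested after the slopes had been seen, and were not refitted without E16.5. Between stroma and epithelium 3 members had the higher slope in stroma (Igf1, Igfbp3 and Igfbp4; background 4.21%) and Igfbp2 the lower (4.03%). Between stroma and endothelium Igfbp4 alone had the higher slope in stroma (2.4%) and none the lower (1.82%), and between the pregranulosa classes Igfbp5 alone had the higher slope in Gng13-high cells (1.64%) and none the lower (0.784%).

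Whether a slope passed depended on single libraries more than its value did. With each library left out in turn, all 9 slopes kept their sign. The slope of Igfbp4 stayed at 0.10 to 0.12 in stroma and at -0.20 to -0.16 in Gng13-low pregranulosa. That of Igfbp2 in stroma stayed at -0.29 to -0.23, and that of Igfbp7 in endothelium ranged from 0.38 to 0.71. The stromal Igfbp4 call was kept in 1 of these 7 fits, the fewest of the 9 slopes. It was also lost with the size factors of DESeq2 in edgeR (adjusted p = 0.0513). Leaving out E11.5 left 6 calls, leaving out E12.5 or P1 left 2 calls and leaving out P5 left 3, whereas leaving out E16.5 gave 14, the 9 above among them. Without cells in which a Y-linked UMI was detected, 10 slopes passed, the 9 among them. The share of all genes called in these fits is not given, so the counts cannot be set against a background. The fall of Igfbp3 in epithelium remained called with each library left out. The mural marker sum of stroma, 294 to 1227 CPM, was not modelled, and its part in the stromal slopes was not tested. The mix of stromal cells with and without Gata4 UMIs (given below) was not modelled or tested either.

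**Figure D3:**
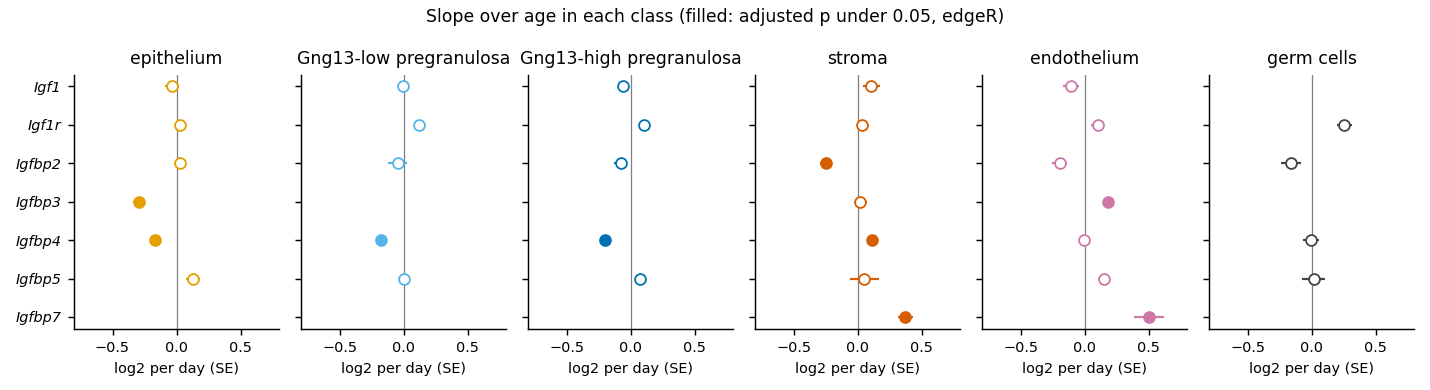
Slope of each gene over age in each class, in log2 units per day with SE, with filled points where the adjusted p in edgeR was under 0.05 and no point where the gene was under the filter. Igfbp7 rose in stroma and endothelium, and Igfbp4 rose in stroma and fell in epithelium and both pregranulosa classes. The stromal Igfbp4 call was kept in 1 of 7 fits with a library left out.

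Other genes of the system were taken from a list of 14, of which 11 could be tested across classes and Igfbp1, Igfals and Pappa2 could not. In stroma 9 of 11 were higher (background 23.6%) and 1 lower (22%), among them Pappa, the protease that cuts IGFBP4 (log2 fold 2.22, SE 0.31), Grb10, an adaptor that dampens receptor signalling (2.20, SE 0.27), Irs1, a docking protein of the receptor (2.13, SE 0.27), and Stc2, which encodes an inhibitor of PAPP-A (-2.71, SE 0.43). In endothelium 5 were higher (22.7%) and 3 lower, which is no larger a share than the 30.8% of all genes, including Stc1 (3.70, SE 0.25), Irs1 (-3.89, SE 0.65), Irs2 (-3.92, SE 0.63) and Igfbp6 (-3.32, SE 0.64). In germ cells 9 of 11 were lower (34.6%) and none higher by edgeR (40.5%), the 4 furthest being Stc1 (-5.39), Pappa (-3.89), Igf2 (-3.83) and Stc2 (-3.51). The median log2 fold of the 11 was 1.08 in stroma, against 2.10 for the 7 members and -0.03 for all genes.

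In epithelium 5 of the 11 were higher and none lower (17.9% in either direction), led by Igfbp6 (2.49, SE 0.35), Irs1 (2.29, SE 0.33), Stc1 (1.62, SE 0.30) and Irs2 (1.42, SE 0.37). In Gng13-low pregranulosa 5 were higher (21.9%) and 2 lower, a share near the 16.9% of all genes, led by Stc2 (2.28, SE 0.31), Pappa (1.70, SE 0.32), Irs1 (1.07, SE 0.29) and the ligand gene Igf2 (1.01, SE 0.19). In Gng13-high pregranulosa 3 were higher (21.6%) and 1 lower (18.2%), namely Irs1 (1.81, SE 0.30), Stc2 (1.36, SE 0.34), Igf2 (1.17, SE 0.21) and Grb10 (-1.09, SE 0.37). Between the 2 pregranulosa classes 0 of 10 passed, where 9.96% of all genes were called higher and 9.73% lower. Pappa was nearest to the threshold (log2 fold -0.96, SE 0.30, edgeR adjusted p = 0.0557). Pappa and Stc2 had an unadjusted p under 0.05, but the share of all genes at that level is not given, so this is not read as a difference.

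Over the 40 sums of class and library, the 2 genes most like each member were found by Pearson's r of log2(CPM + 10), given as a description because sums of 1 library share its cells and depth. They were Armcx2 and Fstl1 for Igf1 (r = 0.80 and 0.79), Tet3 and Pcnx for Igf1r (0.79 and 0.78), Tnni1 and Fah for Igfbp2 (0.91 and 0.88), and Clic4 and Hspa12b for Igfbp3 (0.89 and 0.88). They were Cmtm3 and Ccdc102a for Igfbp4 (0.92 and 0.92), Timp2 and Emp2 for Igfbp5 (0.91 and 0.90) and Sparcl1 and Rgs16 for Igfbp7 (0.92 and 0.88). Between members, r was highest for Igf1 with Igfbp4 (0.76) and lowest for Igfbp2 with Igfbp7 (-0.44).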

How the data were processed

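The authors made 10x Chromium libraries and produced the deposited matrices with Cell Ranger 3.1.0 on mm10. The deposited values are whole-number UMI counts per gene and cell, not normalized.

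Cells with at least 200 genes were gated as described, UMIs were summed per class and library, and levels were given as CPM with 95% exact Poisson limits. The 7 members, the gates' minimum UMIs and the gene lists were chosen with earlier results of these data known. Barcodes were not screened by a doublet caller. Cells that met several gates were set aside, and the 5% of cells with the most UMIs were left out as an alternative. Sums were tested with edgeR 4.0.16 (TMM, quasi-likelihood) on genes at 10 CPM or more in at least 3 sums and called at an adjusted p under 0.05. Each SE was calculated back from the test, as the absolute log2 fold or slope over the square root of the F statistic. It is unreliable for values near 0. Class contrasts had library as a block, and slopes needed at least 6 libraries. The scripts were tested on simulated counts with a set dispersion. In these counts 1 dispersion held for all genes and no class difference changed with age. The comparisons of stroma and of the 2 pregranulosa classes then recovered 99 or 100 of 100 genes with a 2-fold change. The real sums varied more, so this share does not show their power. Igf1 in epithelium over Gng13-low pregranulosa, for example, was not called at a log2 fold of 1.10 (SE 0.42, edgeR adjusted p = 0.0644). The slope in stroma recovered 26 of 100 genes with a 2-fold change over the ages and 97 of 100 with a 4-fold change. An uncalled slope therefore does not show that a trend was absent. Libraries of different ages served as replicates of a class difference, so its p-values measure how that difference varied across libraries. Slope p-values measure the scatter of libraries about a line, with 1 library per age. Named genes were the 7 members, the 4 pathway genes with the largest absolute log2 fold in each contrast and the 2 genes most like each member. Alternatives changed the gates, cell filters, Gng13 split, scaling, tool (DESeq2 1.42.0), expression filter, minimum cells and libraries. Leaving out germ cells or cells with Y-linked UMIs, and the tests of differences between slopes, were added after seeing the data. A bulk change and a change in the RNA content of cells cannot be told apart, since a level is a share of a class's UMIs.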

Additional observations from a re-analysis of the deposited data

Results flagged for a closer look

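Differences of slope over age between classes were tested in edgeR after the class slopes had been seen, only with E16.5 included. Between stroma and epithelium, the stromal slope was higher by 0.16 log2 units per day for Igf1 (adjusted p = 0.00597), by 0.30 for Igfbp3 (adjusted p = 0.00117) and by 0.27 for Igfbp4 (adjusted p = 5.9e-05), and it was lower for Igfbp2 (-0.28, adjusted p = 0.00576). Between stroma and endothelium, the stromal slope of Igfbp4 was higher by 0.12 (adjusted p = 0.00712), whereas the slopes of Igfbp7 were not shown to differ (-0.18, SE 0.09, adjusted p = 0.315). Between Gng13-high and Gng13-low pregranulosa, the slope of Igfbp5 was higher in Gng13-high cells by 0.0931 (adjusted p = 0.0412).

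Members were also detected in cells outside the 6 classes, which entered no comparison. Cells of no gate with at least 3 UMIs of the immune genes Tyrobp plus Fcer1g held 249 CPM of Igf1 at E12.5 (62 cells), against 21.7 in stroma of that library. E12.5 was the highest library for Igf1 in these cells and the lowest in stroma. Stroma held more Igf1 than these cells at E11.5 and from E16.5 to P5. Cells of no gate with at least 3 UMIs of Rgs5, a gene of mural cells, held 2618 CPM of Igfbp7 at P5 (65 cells). Cells of no gate with at least 2 UMIs of Pax8, a gene of the rete and mesonephric tubules, held 1282 CPM of Igfbp5 at E16.5 (53 cells). These levels lay above those of the erythroid cells of the same libraries.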

How the results depend on the processing

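No paired analysis was possible because each age was 1 library, so the ages share no pair of replicate numbers, and class contrasts already had library as a block. The class with the highest median level was that of the main values for all 7 members under 6 alternatives and for 6 of 7 when every cell was weighted equally or the 5% of cells with the most UMIs were left out. Class contrasts gave 34 calls over 6 classes and 31 to 34 with 1 library left out. Outside germ cells they gave 27, of which 24 remained in the 5 contrasts without germ cells, where 3 others were called. The comparison of pregranulosa classes gave 5 calls, 4 to 5 with 1 library left out (Igfbp3 was then under the filter without E12.5 or E14.5). Age slopes gave 9 calls, 2 to 14 with 1 library left out and 5 with at least 50 cells per sum, where 4 of the 6 classes could be fitted. No share of all genes is given for the counts under alternatives. Among tests called in either fit, directions reversed for Igfbp5 alone, in Gng13-low pregranulosa against the other classes without germ cells (-0.27, adjusted p = 0.352), in Gng13-high against the other classes with cells of several gates counted in each (0.50, adjusted p = 0.148), and in Gng13-high minus Gng13-low under that setting (0.16, adjusted p = 0.831). The cause was not tested. Over all single tests and alternatives, 1437 kept their call or lack of one, 61 lost it, 29 gained one and 3 reversed. Of the 1437, 29 were uncalled tests whose sign changed. Counting cells of several gates in each class moved 22 of 203 levels of at least 20 CPM by over 1.5 times. Endothelium (28 to 143 cells) and epithelium from E16.5 on (20 to 75 cells) limit what can be detected.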

Other observations

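At P5, Gng13-low pregranulosa cells with at least 2 UMIs of Amh, a gene of growing follicles, were set beside those with none, with no test because 1 library gave both. Igfbp5 was 95.9 CPM in the first and 180 in the others, a ratio of 0.533 [0.460 to 0.615]. Igfbp2 was 134 and 214 CPM (0.625 [0.552 to 0.707]) and Igfbp4 32.5 and 49.2 (0.66 [0.508 to 0.85]). Igf1 was 58.9 and 54.8 CPM (1.07 [0.876 to 1.31]) and Igf1r 106 and 118 (0.905 [0.782 to 1.05]), and both intervals held 1.

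Stromal cells were likewise divided by Rgs5. Igfbp7 was higher in cells with at least 2 Rgs5 UMIs than in cells with none in each of the 6 libraries compared, 8.58-fold at E11.5 (38.9 against 4.54 CPM), 2.30-fold at E12.5, 4.23-fold at E16.5, 1.44-fold at E18.5, 2.74-fold at P1 and 1.85-fold at P5. Igfbp5 was lower in them in the same libraries, by ratios of 0.230 to 0.768. Stromal cells without Rgs5 UMIs still held 1009 CPM of Igfbp7 at P5 and 4.54 at E11.5. Stroma was also divided by Gata4, into cells with at least 1 UMI and cells with none. At E11.5 the first held 68.2 against 117 CPM of Igfbp2, 445 against 221 of Igfbp5 and 5.82 against 17.4 of Igfbp7. At E12.5 Igfbp7 went the other way (212 against 92.3). At P5 Igfbp2 was 14.7 against 11.7 CPM. How the mix of these cells differed between the libraries was not tested. A split on few UMIs follows the depth of a cell as well.

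Immune-gene cells of no gate held Igf1, in order of age, at 46.8, 249, 205, 200.1, 115, 11.2 and 106 CPM. Stromal Igf1 was below these values at E12.5 and E14.5 and above them in the other libraries. The P1 value came from 28 UMIs in 280 cells.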
